A study of Mus musculus with 12 samples.

Results

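Transcript levels of the keratin genes and of 6 genes of the cornified envelope and its processing were described across 10 RNA sequencing libraries labelled 4T1, which is a line of BALB/c mouse mammary carcinoma cells. The genes were those whose mouse symbol is Krt followed by a number, together with Krtdap, Calm4, Asprv1, Sbsn, Dmkn and Padi1. They came to 53 genes in all, of which 47 were keratins. The table of GSH and WT libraries listed 51 of them (45 keratins and the 6 others) among 30803 Ensembl identifiers, and the table of Cas9 and Ctrl libraries listed 42 (36 keratins and the 6 others) among 17558 symbols. Both tables listed 40. The 6 genes that are not keratins were picked by name with values of these libraries in view, so their levels, and all levels in the Cas9 and Ctrl libraries, are given as a description. For Cas9 against Ctrl only the count over all genes is given from a fit. The keratins were taken by symbol alone, and their GSH and WT values were tested.

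The 4 groups were named by genotype as GSH, WT, Cas9 and Ctrl, with 3 samples each, and all shared the 4T1 label and a treatment label of culture. The labels do not expand GSH, and they name neither the gene targeted with Cas9 nor the cells' clonality. Values were read from GSH 1 to 3, WT 1 to 3, Cas9 1 to 3 and Ctrl 3, and Ctrl 1 and Ctrl 2 were not used here. The labels do not state that replicates are separate cultures, and the p-values then reflect only how these libraries vary, possibly for technical reasons.

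Keratins are the intermediate filament proteins of epithelial cells. A filament needs an acidic type I keratin and a basic type II keratin in equal amounts, and most epithelia use characteristic partners, Krt8 with Krt18 in simple epithelia, Krt5 with Krt14 in the basal layer of stratified epithelia, Krt1 with Krt10 above it, and Krt6 with Krt16 or Krt17 in wounded or hyperproliferative epidermis. The type I genes other than Krt18 lie on mouse chromosome 11, which held 24 of the 47 keratins here, and the type II genes lie with Krt18 on chromosome 15, which held the other 23. In the outermost epidermis, the cornified envelope is built from proteins cross-linked under the plasma membrane, while the keratin filaments inside are bundled, deiminated and partly digested. Mammary luminal cells and carcinomas derived from them are known for Krt7, Krt8, Krt18 and Krt19.

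Library totals were 18531444 to 30168737 reads in the GSH and WT libraries and 33152215 to 39201544 in the Cas9 and Ctrl libraries. Levels are in FPKM, which divides a gene's fragments by its transcript length and by the library total, so that genes may be compared as far as those lengths hold. The epithelial markers were present throughout: Epcam, a surface adhesion protein of epithelial cells, was at 181 to 365 FPKM in the 10 libraries. Leukocyte markers separated the tables, since Ptprc, the common surface antigen of leukocytes, was at 15.9 to 21.1 FPKM in the Cas9 and Ctrl libraries and at most 0.0407 FPKM in the GSH and WT libraries. The summed level of 9 leukocyte markers was 5556, 4939 and 2830 FPKM in Cas9 1, Cas9 2 and Cas9 3 and 4655 FPKM in Ctrl 3, against 3.95 to 15.5 FPKM in the GSH and WT libraries. The RNA was bulk, so fewer cells of a type and less RNA per cell cannot be told apart. The tables were normalised separately and no level was tested across them.

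The simple epithelial keratins made up nearly all keratin transcript in the GSH and WT libraries. Krt7, Krt8, Krt18 and Krt19 together held 96.0% to 97.7% of the summed keratin FPKM, and Krt18, the type I partner of Krt8, had the highest FPKM in all 6 libraries. That order rests on the length each gene was divided by: Krt7, with a merged exon length of 7049 bases, had more reads than Krt18 in each library, for example 31925 against 23094 in GSH 1. All keratins summed to 1223, 1301 and 1261 FPKM in GSH libraries, against 1008, 1061 and 1117 FPKM in WT libraries, which was 0.376%, 0.400% and 0.392% of all FPKM in GSH and 0.302%, 0.322% and 0.333% in WT. Every GSH library thus had a higher keratin sum than every WT library. Of the 51 genes, 12 had a mean of 1 FPKM or more and could be tested or described at that level, 4 others reached 1 FPKM in some library, and 35 stayed under 1 FPKM in all 6. Hair shaft keratins other than Krt87, and the keratins of the inner root sheath, were among those 35.

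The promoters of 3 of these abundant keratins are shown because their transcripts were higher together in GSH libraries, as described next. Each sequence is the 250 bases before the RefSeq start in GRCm38.p6, 5′ to 3′ on the gene's strand. Krt7 lies at chr15:101412153-101412402 on the plus strand, Krt8 at chr15:102004343-102004592 on the minus strand and Krt18 at chr15:102027966-102028215 on the plus strand. Capitals mark GGGCGG, the core of a GC box, on either strand.
Krt7: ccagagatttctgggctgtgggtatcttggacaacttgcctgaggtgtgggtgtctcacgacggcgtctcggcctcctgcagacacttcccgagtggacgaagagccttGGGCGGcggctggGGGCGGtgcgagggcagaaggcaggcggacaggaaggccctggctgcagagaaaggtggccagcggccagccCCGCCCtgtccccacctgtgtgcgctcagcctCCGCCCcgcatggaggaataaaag
Krt8: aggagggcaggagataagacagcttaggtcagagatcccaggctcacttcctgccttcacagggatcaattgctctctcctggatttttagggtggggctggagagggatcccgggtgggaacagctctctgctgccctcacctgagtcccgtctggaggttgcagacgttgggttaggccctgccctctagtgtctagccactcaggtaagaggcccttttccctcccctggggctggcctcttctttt
Krt18: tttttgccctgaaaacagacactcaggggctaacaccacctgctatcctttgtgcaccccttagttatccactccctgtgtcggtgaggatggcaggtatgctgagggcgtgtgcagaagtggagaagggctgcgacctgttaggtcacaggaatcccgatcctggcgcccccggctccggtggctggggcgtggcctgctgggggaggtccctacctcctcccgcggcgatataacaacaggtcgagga
The letters GGGCGG occurred at 4 places in the Krt7 window and at none in the Krt8 and Krt18 windows. Across 32851 promoter windows of the same length, 32.7% held them on at least 1 strand, as did 3 of the 36 keratin and envelope genes with a promoter entry. A gene was counted if any of its windows held them, so genes and windows are unlike units. TATAAA, the core of a TATA box, was in none of the Krt7, Krt8 and Krt18 windows shown.

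Krt8, Krt18, Krt7 and Krt19 were all higher in GSH than in WT libraries, by modest amounts. Krt8, the type II keratin of simple epithelia, was at 435, 463 and 446 FPKM in GSH libraries, against 343, 355 and 377 FPKM in WT libraries. The groups did not overlap, and the means were 448 ± 14.4 FPKM in GSH and 358 ± 16.9 FPKM in WT (SD, n = 3 each), a log2 change of 0.32 (SE 0.04; limma, Benjamini-Hochberg adjusted p = 0.00369). Log2 changes here are on the scale of log2(FPKM + 1), and p-values were adjusted over all 12283 genes tested at a threshold of 0.05. Krt18 was at 533, 556 and 542 FPKM in GSH libraries, against 458, 468 and 514 FPKM in WT libraries. WT 3 was the highest WT library and still lay below every GSH library, and the log2 change was 0.18 (SE 0.05; limma adjusted p = 0.0306).

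Krt7, a type II keratin of glandular ducts, had 150, 154 and 150 FPKM in GSH libraries, against 120, 127 and 127 FPKM in WT libraries. All GSH libraries were above all WT libraries, with a log2 change of 0.28 (SE 0.03; limma adjusted p = 0.0024). Krt19, the type I keratin that lacks most of the usual tail domain, had 74.4, 81.4 and 81.0 FPKM in GSH libraries, against 63.4, 67.5 and 72.1 FPKM in WT libraries. GSH 1 was the lowest GSH library and lay just above WT 3, and the log2 change was 0.22 (SE 0.06; limma adjusted p = 0.0257). Krt80, a type II keratin reported in many epithelia and tied to terminal differentiation, had 9.69, 9.55 and 9.73 FPKM in GSH libraries, against 7.67, 7.95 and 7.79 FPKM in WT libraries. Its groups were far apart for their spread, 9.65 ± 0.0967 FPKM in GSH and 7.81 ± 0.140 FPKM in WT (SD, n = 3 each), with a log2 change of 0.28 (SE 0.03; limma adjusted p = 0.002).

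Krt87, a type II hair keratin gene, differed by the largest factor of the 10 keratins tested. It had 3.77, 4.81 and 5.71 FPKM in GSH libraries (259, 207 and 241 reads), against 1.58, 1.34 and 0.921 FPKM in WT libraries (79, 62 and 45 reads). The lowest GSH library was more than 2 FPKM above the highest WT library, the ratio of the means was 3.72, and the log2 change was 1.33 (SE 0.15; limma adjusted p = 0.00238). The gene lies on chromosome 15 between Krt7 and Krt88 in GENCODE M21, on the opposite strand to both. Whether reads were counted by strand is not given in the sources used here, so reads at the edges of these neighbours cannot be told apart. Hair keratins are close copies of each other in sequence, and reads may also be split among Krt81, Krt83, Krt86 and Krt87. Krt88 did not share the pattern, with 0.441, 0.704 and 0.419 FPKM in GSH libraries against 0.606, 0.655 and 0.982 FPKM in WT libraries, and Krt83 had 1, 5 and 3 reads in GSH libraries and none in WT libraries.

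**Figure D1:**
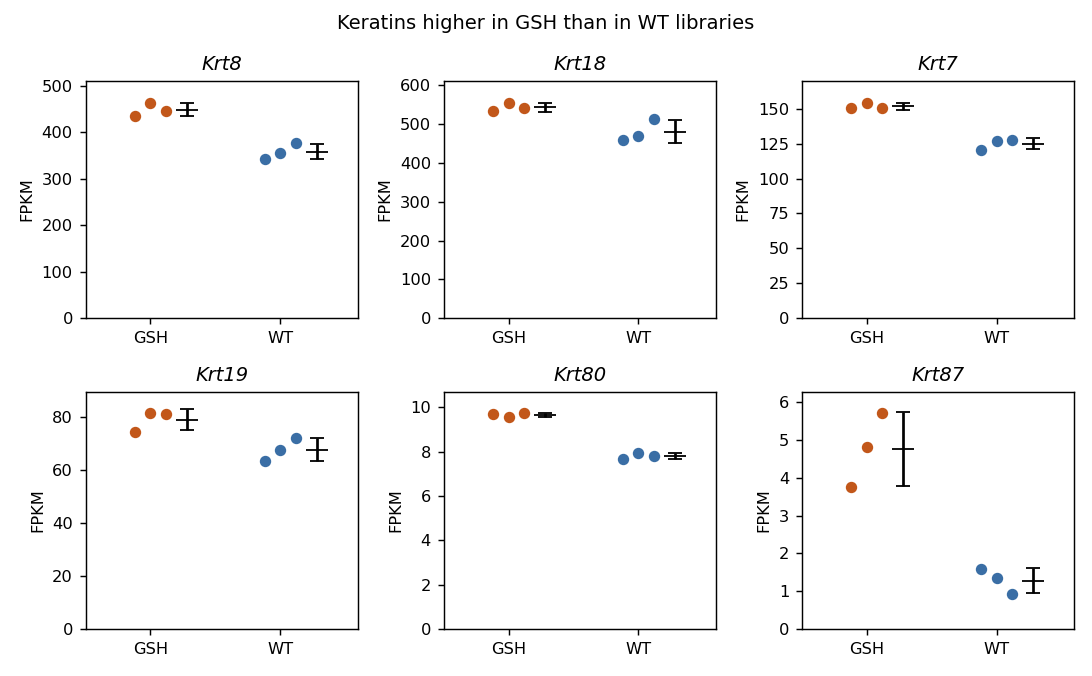
FPKM (linear axes from 0) of the 6 keratins that were higher in GSH than in WT libraries, with a point for each library and the mean ± SD beside each group (n = 3 each). In each panel the 3 GSH points lie above the 3 WT points, and Krt87 is the panel with the widest separation, at means of 4.76 FPKM in GSH and 1.28 FPKM in WT.

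Of the 10 keratins tested, 6 were higher in GSH, 0 were lower and 4 did not pass (Krt5, Krt10, Krt13 and Krt14). Many genes differed between these groups: 4547 of 12283 genes (37.0%) were called, 20.6% higher and 16.4% lower, and 29.0% of genes had all GSH libraries above all WT libraries. Of the calls, 55.7% were higher in GSH, against 42.9% when libraries were scaled without mitochondrially encoded genes, and 2998 genes were called without WT 1. The median log2 change was 0.23 over the 10 keratins and 0.02 over all genes tested. The calls for Krt7, Krt8, Krt80 and Krt87 were kept when any 1 library was left out. In GSH 1, WT 1 and WT 3 alone, chosen after seeing the data, the 6 log2 changes were also positive; with 1 GSH library and 1 residual degree of freedom, 0 of 12264 genes were called there, and this says nothing of how stable the calls are. Krt18 lost its call without GSH 1 (limma adjusted p = 0.0551), GSH 2 (0.0872), GSH 3 (0.0824), WT 1 (0.094) or WT 2 (0.0843), and Krt19 without GSH 2 (0.0742), GSH 3 (0.0808), WT 1 (0.0696) or WT 2 (0.0656).

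The partners did not differ to the same degree. The ratio of Krt8 to Krt18 in FPKM was 0.816, 0.834 and 0.824 in GSH libraries, against 0.749, 0.758 and 0.733 in WT libraries, with no overlap. Over all keratins, type II FPKM divided by type I FPKM was 0.960, 0.964 and 0.955 in GSH libraries, against 0.885, 0.888 and 0.852 in WT libraries. The size of this ratio, like the order of Krt7 and Krt18 above, rests on the length each gene was divided by. It is therefore no measure of balance between the types. The ratio of Krt7 to Krt19 overlapped between groups, at 2.02, 1.90 and 1.86 in GSH and 1.90, 1.88 and 1.77 in WT. These ratios were chosen after their values were seen and were not tested.

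**Figure D2:**
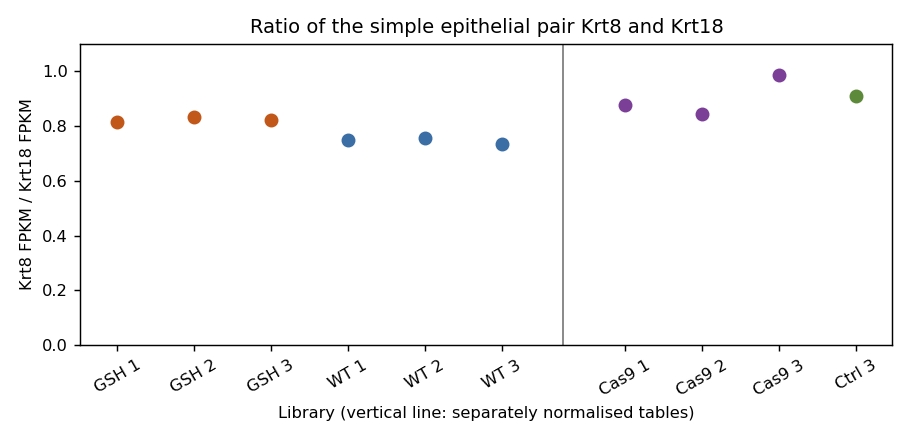
Krt8 FPKM divided by Krt18 FPKM in each library, a linear ratio, with GSH beside WT and Cas9 beside Ctrl. The 3 GSH points (0.816 to 0.834) lie above the 3 WT points (0.733 to 0.758), while Ctrl 3 (0.910) falls within the range of the Cas9 points (0.845 to 0.988).

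Krt14, the basal type I keratin, had 13.3, 16.5 and 15.2 FPKM in GSH libraries, against 10.5, 14.8 and 12.9 FPKM in WT libraries, and its groups overlapped (log2 change 0.23, limma adjusted p = 0.202). Krt10, the type I keratin of suprabasal epidermis, had 2.07, 3.15 and 2.12 FPKM in GSH libraries, against 1.81, 2.80 and 2.07 FPKM in WT libraries (log2 change 0.09, limma adjusted p = 0.667). The library with the replicate number 2 was the highest of its group for both genes.

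Krt5, Krt13, Krt4 and Krt15, keratins of stratified epithelia, varied widely between libraries of 1 group. Krt5, the basal partner of Krt14, had 2, 84 and 64 reads in GSH libraries (0.0302, 2.02 and 1.57 FPKM), against 0, 136 and 11 reads in WT libraries (0, 3.05 and 0.233 FPKM). GSH 2, GSH 3 and WT 2 were high and the other 3 libraries low, so the groups overlapped (log2 change 0.23, limma adjusted p = 0.797). Krt13, the suprabasal type I keratin of oral and oesophageal epithelium, had 5, 66 and 46 reads in GSH libraries, against 2, 106 and 13 reads in WT libraries (log2 change 0.16, limma adjusted p = 0.845). Its type II partner Krt4 had 0, 48 and 26 reads in GSH libraries, against 0, 86 and 3 reads in WT libraries, and was below the level tested. Krt15, a basal type I keratin, had 2, 36 and 68 reads in GSH libraries, against 1, 88 and 12 reads in WT libraries. WT 2 had the most reads of each of these 4 genes.

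Epidermal genes followed a like order of libraries at lower levels. Krt1, the suprabasal type II keratin, had 4, 76 and 14 reads in GSH libraries, against 1, 31 and 1 reads in WT libraries. Calm4, a skin calmodulin-like protein also called Scarf, had 0, 27 and 6 reads in GSH libraries, against 1, 19 and 0 reads in WT libraries. Krtdap, a keratinocyte differentiation-associated protein, had 0, 11 and 1 reads in GSH libraries, against 0, 7 and 1 reads in WT libraries. GSH 2 was highest for these 3 genes and WT 2 the next. Krt6a and Krt6b, which share most of their sequence and between which reads may be split, had at most 30 reads in any library. Krt16, their type I partner, had 43, 33 and 20 reads in GSH libraries, against 20, 35 and 31 reads in WT libraries. It reached 1 FPKM in GSH 2 and WT 2 only. Unlike the genes above, it was not low in GSH 1 and WT 3, and both had more of its reads than GSH 3.

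Summed over 12 genes chosen after their values were seen (Krt1, Krt4, Krt5, Krt6a, Krt6b, Krt13, Krt15, Krt17, Krtdap, Calm4, Asprv1 and Dmkn), there were 26, 447 and 286 reads in GSH libraries, against 7, 581 and 57 reads in WT libraries. Scaled to the library total this was 0.862, 23.7 and 15.4 RPM in GSH libraries, against 0.319, 28.6 and 2.66 RPM in WT libraries (RPM are reads scaled to the library total). Krt10, Krt14 and Krt16, which varied less between libraries, were not in this sum. Markers of other tissues moved in some of the same libraries. The 12 listed odorant-binding and urinary protein genes summed to 1.77, 489 and 193 FPKM in GSH libraries, against 2.03, 12.5 and 345 FPKM in WT libraries. The 11 skeletal muscle markers summed to 56.8, 54.7 and 63.1 FPKM in GSH libraries, against 58.9, 139 and 70.5 FPKM in WT libraries, so WT 2 was highest for muscle and WT 3 and GSH 2 for the odorant-binding genes. The melanocyte list reached 1 FPKM for none of its genes. Dct, its melanin synthesis enzyme, was at 0 in 5 of the 6 libraries, whereas Pmel of the same list was at 0.346 to 0.730 FPKM. Trp63, a transcription factor that keratinocytes express, was at most 0.0356 FPKM in all 6. Lgals7, a galectin of stratified epithelia, was at 0.215, 1.48 and 0.582 FPKM in GSH libraries, against 0.0491, 0.850 and 0.101 FPKM in WT libraries. Dsg3, a cadherin of basal keratinocytes, was at 0.0523, 0.0455 and 0.0619 FPKM in GSH libraries, against 0.0849, 0.141 and 0.0468 FPKM in WT libraries. The part of other cell types in these reads was not tested.

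**Figure D3:**
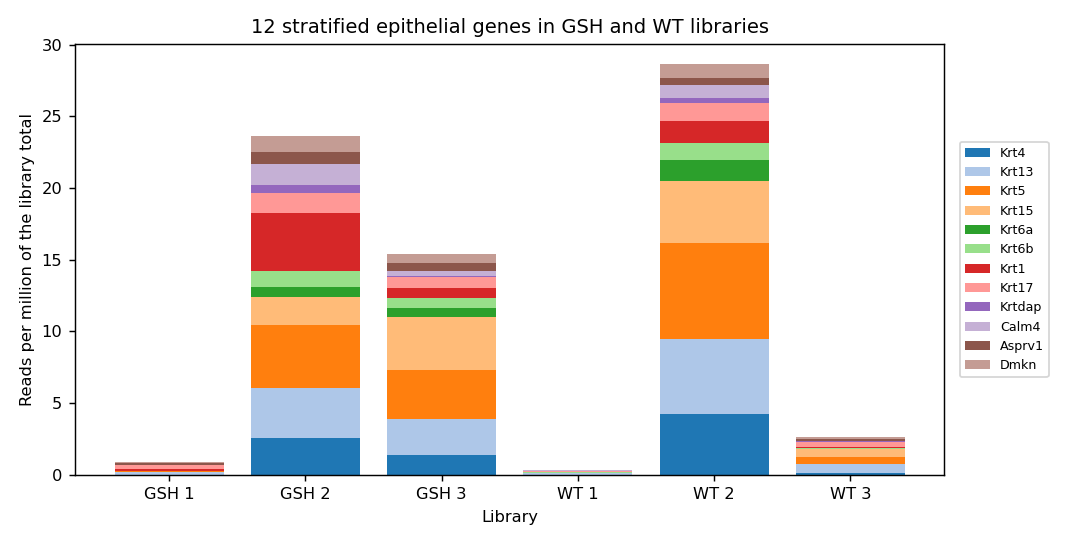
RPM as bars from 0, stacked over 12 keratin and envelope genes of stratified epithelia in each GSH and WT library. Krt10, Krt14 and Krt16 are not among the 12. GSH 2, GSH 3 and WT 2 stand at 23.7, 15.4 and 28.6 RPM, and GSH 1, WT 1 and WT 3 at 0.862, 0.319 and 2.66.

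Of the 6 genes that are not keratins, Padi1 and Sbsn had a mean above 1 FPKM in the GSH and WT libraries. Padi1, a peptidylarginine deiminase that converts arginines of keratins to citrulline, had 8.10, 7.76 and 7.81 FPKM in GSH libraries, against 7.22, 7.95 and 7.73 FPKM in WT libraries. Sbsn, the secreted epidermal protein suprabasin, had 2.47, 3.04 and 2.58 FPKM in GSH libraries, against 3.10, 3.03 and 2.79 FPKM in WT libraries. Both genes overlapped between groups and were present in all 6 libraries, unlike Krtdap, Calm4, Asprv1 and Dmkn, each of which was at 0 in WT 1 or GSH 1.

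Other genes of the cornified envelope, taken from a list of 77 of which 62 were in the table, were mostly too low to test in GSH and WT. Of the 11 tested, 2 were higher in GSH, 2 lower and 7 did not pass, with a median log2 change of -0.09, a share called near the 37.0% of all genes. Lce1g, a late cornified envelope protein, averaged 36.7 ± 1.95 FPKM in GSH and 28.5 ± 1.82 FPKM in WT (SD, n = 3 each; log2 change 0.35, limma adjusted p = 0.00557). In the other table Lce1g was at 0, 0 and 0.939 FPKM in Cas9 libraries and 0 in Ctrl 3, and the reason for this difference was not tested. Aloxe3, a lipoxygenase of the epidermal lipid barrier, averaged 2.35 FPKM in GSH and 2.95 FPKM in WT (log2 change -0.24, limma adjusted p = 0.0144). Of 9 desmosome genes tested, which encode the junctions that anchor keratin filaments, 4 were higher in GSH, 1 lower and 4 did not pass, beside 20.6% higher and 16.4% lower over all genes. Jup, the plakoglobin that links desmosomal cadherins to the filament system, averaged 20.2 ± 0.789 FPKM in GSH and 15.7 ± 0.832 FPKM in WT (log2 change 0.35, limma adjusted p = 0.0034), whereas Perp, a desmosomal membrane protein, averaged 160 ± 1.39 FPKM in GSH and 182 ± 5.47 FPKM in WT (log2 change -0.19, limma adjusted p = 0.00553). Vim, the mesenchymal intermediate filament protein, averaged 280 ± 3.81 FPKM in GSH and 233 ± 7.46 FPKM in WT (log2 change 0.26, limma adjusted p = 0.00281), and was thus higher in GSH together with the simple keratins, while Epcam was lower, at 286 ± 4.26 FPKM in GSH and 354 ± 9.81 FPKM in WT (log2 change -0.31, limma adjusted p = 0.002).

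In the Cas9 and Ctrl libraries the simple epithelial keratins were again the most abundant. Krt8 was at 589, 747 and 885 FPKM in Cas9 libraries and 808 FPKM in Ctrl 3, and Krt18 was at 672, 884 and 896 FPKM in Cas9 libraries and 888 FPKM in Ctrl 3. Krt7 had 214, 419 and 321 FPKM in Cas9 libraries and 420 FPKM in Ctrl 3. Cas9 1 was the lowest of the 4 libraries for these 3 genes, and Ctrl 3 lay within the Cas9 range for Krt8 and Krt18 and just above it for Krt7. Krt19 had 33.7, 54.3 and 68.2 FPKM in Cas9 libraries and 49.0 FPKM in Ctrl 3, and Krt80 had 1.60, 3.95 and 6.71 FPKM in Cas9 libraries and 3.41 FPKM in Ctrl 3. Krt23, a type I keratin of some glandular epithelia, was highest in Cas9 2, at 2.49 FPKM against 0.560 and 0.689 FPKM in Cas9 1 and Cas9 3 and 0.379 FPKM in Ctrl 3. With 1 Ctrl library, limma called 0 of 11407 genes (0%), of which 210 had an unadjusted p under 0.05, and nothing was read from this about the keratins.

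Cas9 3 held a set of epidermal keratins and envelope genes that the other 3 libraries of this table lacked or had at low level. Promoters of 3 of them are shown, 1 each for a basal keratin, a suprabasal keratin and a late differentiation gene, again as the 250 bases before the RefSeq start in GRCm38.p6, 5′ to 3′ on the gene's strand. Krt5 lies at chr15:101712906-101713155 on the minus strand, Krt10 at chr11:99389365-99389614 on the minus strand and Krtdap at chr7:30787655-30787904 on the plus strand. Capitals mark TATAAA and TGANTCA, the core of sites bound by AP-1 factors, on either strand.
Krt5: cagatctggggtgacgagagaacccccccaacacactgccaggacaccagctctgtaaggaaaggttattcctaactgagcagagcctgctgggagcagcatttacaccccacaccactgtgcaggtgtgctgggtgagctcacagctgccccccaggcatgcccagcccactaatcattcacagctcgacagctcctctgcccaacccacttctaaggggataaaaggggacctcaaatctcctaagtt
Krt10: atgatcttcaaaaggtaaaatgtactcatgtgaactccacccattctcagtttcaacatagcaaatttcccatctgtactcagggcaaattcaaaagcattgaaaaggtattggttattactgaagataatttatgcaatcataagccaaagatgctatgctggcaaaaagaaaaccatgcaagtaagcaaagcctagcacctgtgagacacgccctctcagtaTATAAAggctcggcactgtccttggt
Krtdap: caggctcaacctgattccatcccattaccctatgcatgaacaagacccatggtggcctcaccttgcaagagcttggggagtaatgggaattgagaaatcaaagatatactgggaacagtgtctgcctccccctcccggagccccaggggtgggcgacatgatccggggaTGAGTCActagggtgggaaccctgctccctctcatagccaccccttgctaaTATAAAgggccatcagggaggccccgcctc
TATAAA occurred in the Krt10 and Krtdap windows and TGANTCA in the Krtdap window, with neither in the Krt5 window. Of the 36 keratin and envelope genes with a promoter entry, 13 held TATAAA, against 12.4% of all 32851 windows, and 4 held TGANTCA, against 6.75%. Genes were again counted if any of their windows held the letters, so these counts and the shares of windows are in unlike units.

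The basal keratins were high in Cas9 3. Krt14 was at 35.8, 70.1 and 360 FPKM in Cas9 libraries and 74.7 FPKM in Ctrl 3, so Cas9 3 was 4.82 times the highest of the others. Krt5 was at 0, 0 and 39.8 FPKM in Cas9 libraries and 0.891 FPKM in Ctrl 3. Krt14 was therefore abundant in libraries where Krt5, its usual partner, was listed at 0. Krt15 was at 0.878, 0.719 and 1.91 FPKM in Cas9 libraries and 0.519 FPKM in Ctrl 3.

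Suprabasal and wound keratins showed the same library. Krt1 was at 0, 0 and 15.9 FPKM in Cas9 libraries and 0 in Ctrl 3, and Krt10 at 0.860, 0.756 and 16.7 FPKM in Cas9 libraries and 1.25 FPKM in Ctrl 3. Krt79, a type II keratin of the hair canal and sebaceous duct, was at 0, 0.0144 and 14.8 FPKM in Cas9 libraries and 0.0487 FPKM in Ctrl 3. Krt6a was at 0, 0 and 30.7 FPKM in Cas9 libraries and 0 in Ctrl 3, and Krt6b at 0, 0 and 42.6 FPKM in Cas9 libraries and 0 in Ctrl 3. These are the type II keratins that appear in wounded epidermis, and their type I partners were present with them. Krt16 was at 0.107, 0.269 and 41.9 FPKM in Cas9 libraries and 0.0325 FPKM in Ctrl 3, and Krt17 at 1.60, 1.02 and 43.9 FPKM in Cas9 libraries and 1.09 FPKM in Ctrl 3. Reads may be split between Krt6a and Krt6b, and among Krt14, Krt16 and Krt17, which are close copies.

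The envelope genes showed it too. Krtdap was at 0, 0 and 59.8 FPKM in Cas9 libraries and 0 in Ctrl 3, and Calm4 at 0, 0 and 53.4 FPKM in Cas9 libraries and 0 in Ctrl 3. Asprv1, a skin aspartic protease that processes profilaggrin, was at 1.77, 1.35 and 28.1 FPKM in Cas9 libraries and 0.714 FPKM in Ctrl 3. Dmkn, the secreted epidermal protein dermokine, was at 0.129, 0.0279 and 18.9 FPKM in Cas9 libraries and 0.0118 FPKM in Ctrl 3, and Sbsn at 0.434, 0.475 and 2.42 FPKM in Cas9 libraries and 0.479 FPKM in Ctrl 3. Padi1 was the exception, at 4.51, 5.08 and 4.81 FPKM in Cas9 libraries and 10.3 FPKM in Ctrl 3, so that it was even among the Cas9 libraries and highest in Ctrl 3.

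**Figure D4:**
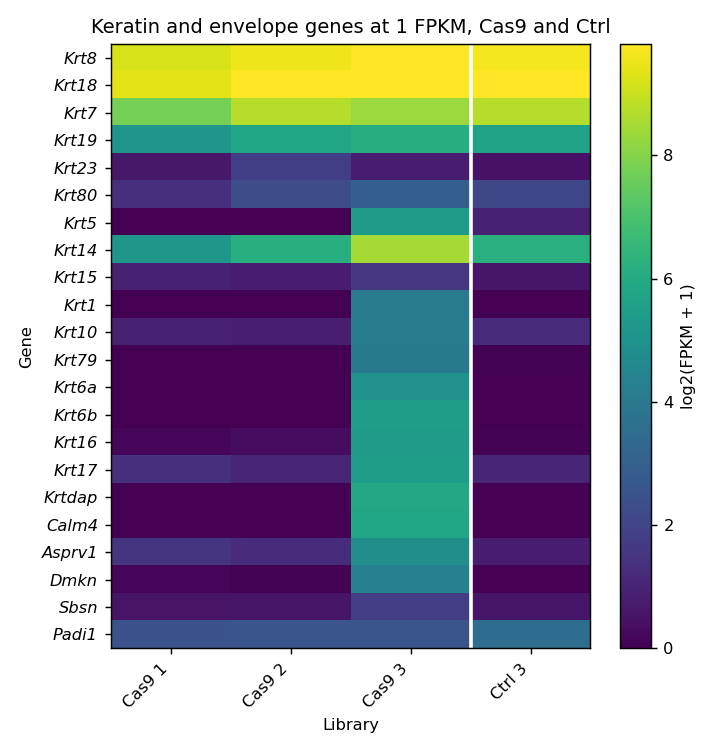
Levels as log2(FPKM + 1) of the 22 keratin and envelope genes that reached 1 FPKM in a Cas9 or Ctrl library, with a column for each library and Ctrl 3 at the right of the white line. Krt8, Krt18, Krt7 and Krt19 are bright in all 4 columns, whereas Krt5, Krt1, Krt79, Krt6a, Krt6b, Krt16, Krtdap, Calm4 and Dmkn are bright in the Cas9 3 column and dark in the other 3.

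Counted over all 42 genes, 9, 10 and 21 reached 1 FPKM in Cas9 1, Cas9 2 and Cas9 3, and 9 in Ctrl 3. Of these, 8 did so in all 4 libraries and 11 in Cas9 3 alone, and 20 stayed under 1 FPKM in all 4. Over all 17558 genes of the table, 107, 75 and 207 genes reached 1 FPKM in Cas9 1, Cas9 2 or Cas9 3 alone, and 58 in Ctrl 3 alone. Cas9 3 was the highest library for 25 of the 37 genes above 0 (67.6%) and for 32.5% of the 17018 genes above 0 in the table. Both the 42 and the 37 genes include the 6 non-keratin genes picked with values of these libraries in view. The counts and shares are therefore a description and do not test the set. By class, basal keratins summed to 36.7, 70.9 and 402 FPKM in Cas9 libraries and 76.1 FPKM in Ctrl 3, and wound keratins to 1.71, 1.29 and 159 FPKM in Cas9 libraries and 1.12 FPKM in Ctrl 3. Simple keratins, at 1509, 2107 and 2171 FPKM in Cas9 libraries and 2166 FPKM in Ctrl 3, were close together in Cas9 2, Cas9 3 and Ctrl 3. Their share of keratin FPKM was 97.3%, 96.3% and 77.8% in Cas9 libraries and 96.3% in Ctrl 3.

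**Figure D5:**
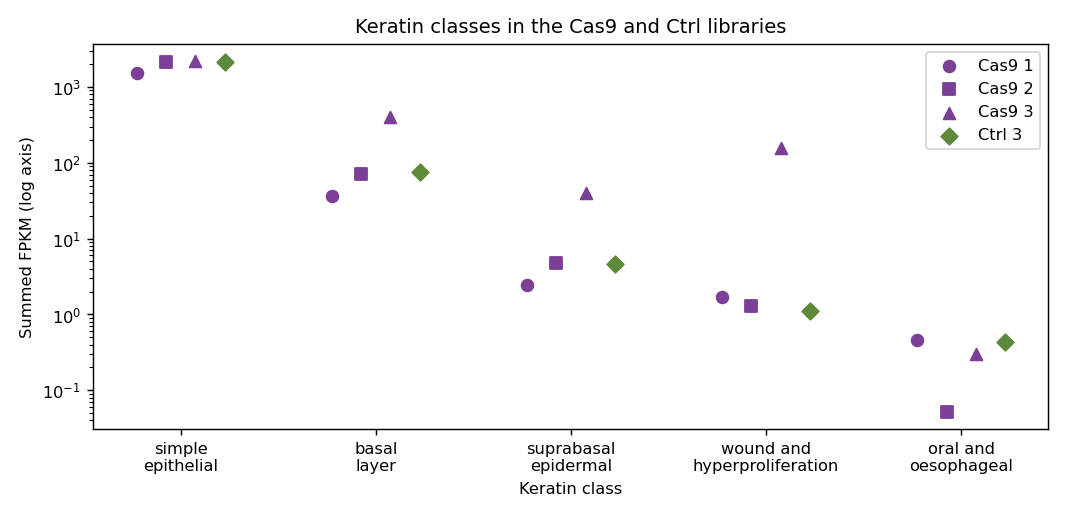
Summed FPKM on a log axis of 5 keratin classes, with a point for each Cas9 library and a diamond for Ctrl 3. The 4 points lie close together for simple epithelial keratins, while the Cas9 3 triangle stands above the others for basal (402 FPKM), suprabasal (39.5 FPKM) and wound keratins (159 FPKM) but not for oral keratins.

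The set in Cas9 3 did not extend to every kind of keratin. Krt4 was at 0 in all 4 libraries, and Krt13 was at 0.434, 0.052 and 0.299 FPKM in Cas9 libraries and 0.425 FPKM in Ctrl 3, so the oral keratins that moved with Krt5 among GSH and WT libraries were not high with it here. Keratins of the inner root sheath and hair shaft stayed under 1 FPKM in all 4 libraries, as did the 1 keratin-associated protein gene in the table, whose products embed hair keratins. Krt77 and Krt78, type II keratins expressed in suprabasal epidermis, were at 0.069 and 0.138 FPKM in Cas9 3.

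Genes that work with these keratins were also seen in Cas9 3. Of 69 other cornified envelope genes in the table, 11, 10 and 34 reached 1 FPKM in Cas9 1, Cas9 2 and Cas9 3 and 10 in Ctrl 3, and 23 did so in Cas9 3 alone. Lgals7, the galectin of stratified epithelia, was at 8.12, 11.5 and 157 FPKM in Cas9 libraries and 7.30 FPKM in Ctrl 3, and Sprr2a3, a small proline-rich envelope protein, at 1.48, 0 and 80.9 FPKM in Cas9 libraries and 0.0599 FPKM in Ctrl 3. Of 14 desmosome genes, 9, 9 and 13 reached 1 FPKM in Cas9 libraries and 9 in Ctrl 3, among them Dsg3, the cadherin of basal keratinocytes, at 0.0609, 0.0437 and 1.39 FPKM in Cas9 libraries and 0.105 FPKM in Ctrl 3. Trp63 was at 0.826, 0.531 and 2.01 FPKM in Cas9 libraries and 0.166 FPKM in Ctrl 3. Some epithelial genes outside the epidermal set, and the mesenchymal gene Vim, were also highest in Cas9 3, while other epithelial genes were not. Cldn4, a marker of mammary carcinoma epithelium, was lowest there, at 239, 241 and 188 FPKM in Cas9 libraries and 200 FPKM in Ctrl 3. Esr1, from the luminal list, was also lowest there, at 3.03, 2.59 and 2.22 FPKM in Cas9 libraries and 2.50 FPKM in Ctrl 3. The 12 luminal mammary markers summed to 252, 313 and 451 FPKM in Cas9 libraries and 268 FPKM in Ctrl 3. Most of this sum in each library came from Epcam and Cdh1, so it mainly repeats their levels, given next. Epcam was at 181, 226 and 318 FPKM in Cas9 libraries and 189 FPKM in Ctrl 3, and Cdh1, the cadherin of epithelial junctions, at 51.8, 74.9 and 113 FPKM in Cas9 libraries and 62.4 FPKM in Ctrl 3. Vim was at 1507, 1638 and 2534 FPKM in Cas9 libraries and 1974 FPKM in Ctrl 3. Some other marker lists summed lowest in Cas9 3, among them the 9 leukocyte markers, as given above. Cd74 and Lyz2 held most of the leukocyte sum, at 2206 and 3048 FPKM in Cas9 1 and 1067 and 1035 FPKM in Cas9 3. The 8 fibroblast markers summed to 495, 1588 and 474 FPKM in Cas9 libraries and 1036 FPKM in Ctrl 3, so Cas9 1 was close to Cas9 3. The 11 muscle markers summed to 40.7, 32.0 and 16.4 FPKM in Cas9 libraries and 21.1 FPKM in Ctrl 3. Myoepithelial and sebaceous gland lists instead summed lowest in Cas9 1. The 6 myoepithelial markers summed to 56.1, 147 and 65.0 FPKM in Cas9 libraries and 128 FPKM in Ctrl 3. The 8 sebaceous gland markers summed to 65.5, 74.2 and 66.6 FPKM in Cas9 libraries and 79.1 FPKM in Ctrl 3. Fasn and Soat1 held most of this sum, at 40.7 and 23.3 FPKM in Cas9 1 and 38.9 and 24.0 FPKM in Cas9 3. Elovl3, of the same list, was at 0, 0 and 0.964 FPKM in Cas9 libraries and 0 in Ctrl 3. The number of sebaceous genes at 0 was 2, 3 and 0 in Cas9 libraries and 3 in Ctrl 3. S100a8 and S100a9, both of the leukocyte list, went against its sum and were highest in Cas9 3. S100a8 was at 76.9, 63.0 and 239 FPKM in Cas9 libraries and 46.3 FPKM in Ctrl 3. S100a9, which neutrophils and stressed keratinocytes both express, was at 138, 103 and 425 FPKM in Cas9 libraries and 80.7 FPKM in Ctrl 3. The 4 melanocyte markers in the table stayed under 1 FPKM in all 4 libraries. The part of other cells in the Cas9 3 levels was not tested.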

How the data were processed

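Messenger RNA of 12 samples in 4 groups is described by the labels, and deposited values of 10 libraries were used. Bowtie2 (2.2.3), HISAT2 (2), HTSeq (0.6.0) and the build mm8 are named, with no role, in the submitters' processing notes. No header states a unit. The values deposited by the authors were taken as FPKM, since multiplying them by GENCODE M21 exon lengths returned 1 whole library total for many genes of a library. In the GSH and WT table the annotated length gave whole reads, within 0.01 read, for 29696 of 30803 genes, and those reads are printed. In the Cas9 and Ctrl table it did so for 595 of 17018 genes above 0, and for 16354 others whole numbers came only with a length fitted to the gene, so no reads of that table are printed and its library totals rest on 223 to 261 genes a library. Depth is the library total so recovered; counts of 3 or fewer reads are at the limit of detection, for counting error only. Symbols matched 30190 of 30803 Ensembl identifiers, and Krt83 in the Cas9 and Ctrl table may be Krt87, for which RefSeq gives it as an older name. The pseudogene Krt8-ps was not counted.

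Groups and replicate numbers came from sample titles. Within each table, limma 3.58.1 (lmFit, eBayes with trend; R 4.3.3) was fitted to log2(FPKM + 1) over genes with a mean of 1 FPKM or more, two-sided, with group as the only term and Benjamini-Hochberg adjustment at 0.05. The fit for Cas9 against Ctrl has 2 residual degrees of freedom, all from Cas9 libraries. Both fits were tested on simulated data with known changes, in which every gene had the same small spread beyond counting error. That setting does not represent the spread among the Cas9 libraries. Other scalings, filters and pseudocounts, a replicate block and fits without each library were alternatives. Genes with 1 FPKM or more on average or in any library of a table were named, as were up to 4 genes a list by smallest p or highest level; other genes named were chosen after their values were seen. The genes and lists described were chosen with earlier results of these data known. Promoters are from RefSeq (GRCm38.p6), which had entries for 36 of the 53 genes; protein sequences were not used here. Motifs were searched on both strands.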

Additional observations from a re-analysis of the deposited data

How the results depend on the processing

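The 6 keratins higher in GSH than in WT kept that direction under all 13 alternatives tried. Krt7, Krt8, Krt80 and Krt87 kept their calls in 12 of 13, with adjusted p up to 0.0172. Krt18 lost its call in 10 (adjusted p 0.0502 to 0.377 there), among them relative log expression scaling (0.0579) and scaling without mitochondrial genes (0.0596), and Krt19 in 6 (0.0656 to 0.374 there); the cause was not tested. Leaving out 1 library each gave 2998 to 3671 genes called, lowest without WT 1, and 4 to 6 keratins. Within WT 1, WT 3 and GSH 1, chosen after seeing the data as the libraries with the fewest stratified keratin reads, 0 genes and 0 keratins were called, with 3791 genes at an unadjusted p under 0.05, 1 residual degree of freedom, which says nothing of stability, and WT 1 and WT 3 setting the spread for the lone GSH library. Of the calls, 55.7% were higher in GSH, against 42.9% with scaling without mitochondrial genes. For genes that did not pass, leaving out 1 library gave a log2 change of -0.049 to 0.22 for Krt10, -0.21 to 0.58 for Krt13 and -0.16 to 0.71 for Krt5, with the sign turned for Krt10 without GSH 2 or WT 1 and for Krt13 and Krt5 without WT 1 or WT 3.

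Same-numbered GSH and WT libraries deviated with correlations of 0.479, -0.107 and 0.209, so the numbers were not taken as pairs. With a replicate block, 3867 genes and 6 keratins were called; Krt14 gained a call (adjusted p = 0.0242) and Krt18 lost it (0.0502). For Cas9 against Ctrl, 0 genes were called without each Cas9 library, with 189 to 346 at an unadjusted p under 0.05. A count-model test planned on the recovered reads is not reported, because the deposited unit is FPKM and not counts. Depth limits genes with a few reads, and no replicate of Ctrl was used.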
